A study of Drosophila melanogaster with 10 samples.

Results

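The monoamine receptors described here are G protein-coupled receptors for dopamine, serotonin and octopamine, measured in RNA given as that of heads of Drosophila melanogaster. The set was listed as 8 genes: the dopamine receptors Dop1R1, Dop1R2 and Dop2R, the serotonin receptors 5-HT1A, 5-HT1B, 5-HT2A and 5-HT7, and the octopamine receptor Oamb. Members were found by the gene symbol that the platform annotation gives each probe set, a probe set being a group of short probes read as 1 value. It named 8 probe sets for 6 of the 8 genes, among 13647 probe sets that carry 1 symbol and 11982 genes in all. Dop1R2 and Oamb were not analysed here. All flies were of the yw strain, and every array is labelled as a control, with no treatment given in the labels. By their labels the groups differ only in zeitgeber time (ZT, hours of the daily cycle). Each of ZT3 and ZT15 has 3 arrays, whereas a single array covers each of ZT7, ZT11, ZT19 and ZT23, so values at those 4 times have no replicate. The labels state neither the light schedule, nor the age and sex of the flies, nor how many heads were pooled. Whether replicates came from separate flies is likewise unstated, so that p-values cover only the spread between these arrays.

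Monoamines act in the fly brain mostly as slow modulators. Dopamine promotes waking and carries reinforcement signals to the mushroom body, serotonin acts on sleep, feeding and the response of the clock to light, and octopamine, the insect counterpart of noradrenaline, promotes arousal. D1-like receptors and 5-HT7 raise cyclic AMP through the stimulatory G protein, D2-like and 5-HT1 receptors lower it, and 5-HT2 receptors release calcium through phospholipase C. In the brain these receptors are made mainly by subsets of neurons, whose RNA in a whole head is mixed with that of eye, glia, fat and muscle.

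Levels below are natural logs of the deposited values, which were likely GCRMA log2 values raised to the base e, and are read as log2 units. Probes of different genes bind with different strength, so each gene is compared only with itself. Clustering split the 10 arrays into groups of 6 and 4, which cross the times of day. The set of 6 holds 1 array of each time (ZT3 replicate 3, ZT7, ZT11, ZT15 replicate 1, ZT19 and ZT23). The set of 4 holds ZT3 replicates 1 and 2 and ZT15 replicates 2 and 3. Correlations over the 12991 tested probe sets were at least 0.968 within a set and at most 0.83 between sets. The mean level of 13 neuron markers was 10.28 to 10.89 in the set of 6 and 9.62 to 9.98 in the set of 4. Photoreceptor markers, which belong in a head, were at 13.21 to 13.73 on every array. The mean of 15 testis and accessory gland markers, which do not, was 11.2 to 12.38 in the set of 6 and 3.67 to 5.09 in the set of 4. For each of these 15 the sets did not overlap. The set of 6, which holds the only arrays of ZT7, ZT11, ZT19 and ZT23, thus gave high values for genes that do not belong in a head. Whether its RNA came from heads alone was not tested. In RNA of mixed tissue, fewer cells of a type and less RNA per cell cannot be told apart. Results that span both sets are therefore given with the set as a block and within each set.

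Dop1R1 (CG9652), the D1-like receptor required in the mushroom body for olfactory learning, was at 8.31 at ZT3, 8.20 at ZT7, 8.73 at ZT11, 8.74 at ZT15, 8.16 at ZT19 and 8.91 at ZT23 in the set of 6. In the set of 4 it was at 7.21 and 7.61 at ZT3 and at 7.32 and 6.84 at ZT15. Every array of the set of 4 lay below every array of the set of 6. Within the set of 6 no step between levels next to each other in rank was larger than 0.48, the larger gap between replicate arrays of one time in the set of 4, although the whole range, from ZT23 down to ZT19, was 0.75.

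Dop2R (CG33517), the D2-like receptor that also acts as an autoreceptor on dopamine neurons, was at 7.98, 8.15, 8.39, 8.48, 7.98 and 8.89 from ZT3 to ZT23 in the set of 6. On the other 4 arrays it was at 8.79 and 8.87 at ZT3 and at 8.36 and 8.36 at ZT15. The replicate arrays within that set lay close together, 0.084 apart at ZT3 and 0.0064 at ZT15. Over both sets the SD was 0.49 at ZT3 and 0.071 at ZT15. In the set of 6 the order was ZT23, ZT15, ZT11, ZT7, ZT19 and ZT3. Only the last step, 0.0030 between ZT19 and ZT3, was within the replicate gap of the set of 4. Here and for the other receptors, that gap comes from pairs of arrays of the set of 4. It does not give the spread in the set of 6, which has no replicates. The residual SD of ZT15 against ZT3 with the set as a block was 0.33. A second Dop2R probe set was at 3.11 to 4.05 on all arrays. It stayed below the filter used for testing, a mean of 4 over all arrays, and may not be above background.

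5-HT1A (CG16720), a receptor that lowers cyclic AMP and whose loss in flies shortens sleep, was at 8.29, 8.19, 8.70, 8.49, 8.28 and 9.29 from ZT3 to ZT23 in the set of 6. The 4 remaining arrays gave 8.67 and 8.59 at ZT3 and 8.30 and 8.23 at ZT15. ZT23, a single array, stood 0.59 above the next highest array of its set, ZT11. Replicate gaps within the set of 4 were at most 0.075, while the SD of the ZT3 arrays over both sets was 0.20. Its probe set ID carries the suffix that Affymetrix gives to probes able to match transcripts of more than 1 gene, so part of the signal could come from another gene, although the annotation lists 1 symbol.

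5-HT1B (CG15113), the other receptor of this class, which acts in clock neurons on the response to light, was at 6.22, 6.56, 6.92, 6.80, 6.49 and 7.43 from ZT3 to ZT23 in the set of 6. The set of 4 gave 7.05 and 6.70 at ZT3 and 6.50 and 6.84 at ZT15. Replicate arrays within the set of 4 were up to 0.35 apart. Of the steps between ranks in the set of 6 only that from ZT23 to ZT11, 0.51, exceeded that gap. Its second probe set was at 2.72 to 3.84, below the filter, and was lowest at ZT23.

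5-HT2A (CG1056), which signals through calcium, was at 8.31, 8.36, 8.71, 8.92, 8.60 and 8.81 from ZT3 to ZT23 in the set of 6. Arrays of the set of 4 read 9.52 and 9.49 at ZT3 and 9.62 and 9.80 at ZT15. All 4 of these lay above all 6 others, the reverse of Dop1R1. ZT15 was the highest time in both sets. Of the steps between ranks in the set of 6 only that from ZT19 to ZT7, 0.24, exceeded 0.18, the larger replicate gap within the set of 4.

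5-HT7 (CG12073), which raises cyclic AMP and is made in part by neurons of the ellipsoid body, was at 6.75, 6.62, 6.81, 7.09, 6.70 and 7.52 from ZT3 to ZT23 in the set of 6. On the set of 4 it was at 6.31 and 6.33 at ZT3 and at 6.04 and 6.17 at ZT15. The set of 4 lay wholly below the set of 6. The steps from ZT23 to ZT15 (0.42) and from ZT15 to ZT11 (0.29) exceeded 0.13, the larger replicate gap within the set of 4. The steps among the lower 4 times did not.

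**Figure D1:**
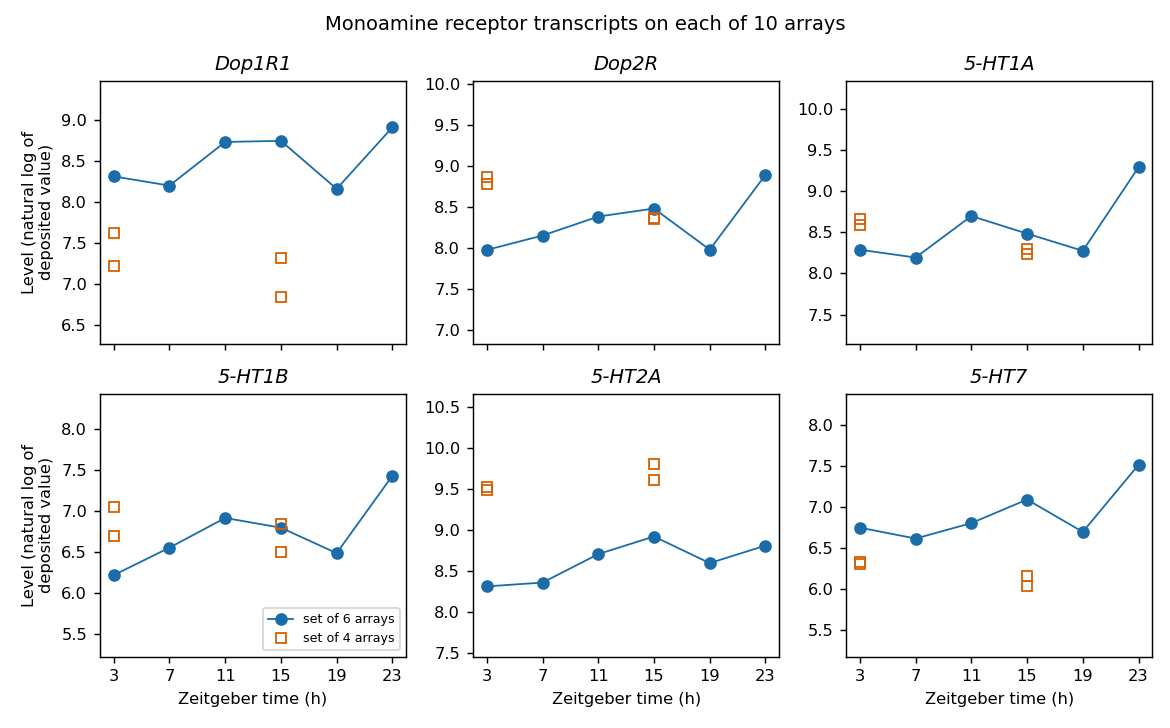
Level of each receptor (natural log of the deposited value, vertical axis) against zeitgeber time in hours, 1 point per array; every panel spans the same number of units. Filled circles joined by a line are the set of 6 arrays and open squares the set of 4: in all panels but that of 5-HT2A the highest point is ZT23, and Dop1R1, 5-HT7 and 5-HT2A separate by array set.

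The comparison of ZT15 with ZT3 asks whether receptor RNA differs between the early night and the early day, under the usual convention that lights go on at ZT0. For none of the 6 receptors was a difference detected. Over all 12991 probe sets the share past an adjusted p of 0.05 was 0.0308% without the set as a block and 0.154% with it (limma, 4 and 20 probe sets), against 0 of 6 receptors in both fits. At an unadjusted p under 0.05 there were 0 receptors without the block and 1 with it, where 1.81% and 9.6% of all probe sets passed. The 3 arrays of ZT3 and the 3 of ZT15 overlapped for all 6 receptors, where 5.13% of all probe sets did not overlap (2.71% higher and 2.42% lower at ZT15). The median difference was -0.056 over the 6 receptors and 0.0061 over all probe sets.

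5-HT2A had the largest difference, ZT15 minus ZT3, with means of 9.11 ± 0.69 (SD, n = 3) at ZT3 and 9.45 ± 0.46 at ZT15. The difference was 0.34 ± 0.13 (SE with the block), or 1.26-fold, with a 95% interval of 0.0070 to 0.67. It did not pass adjustment over all probe sets (limma, adjusted p 0.51 with the block and 1.0 without, unadjusted 0.047 and 0.46). It was 0.20 within the set of 4 and 0.61 within the set of 6, higher at ZT15 in both. Without ZT3 replicate 3 and without the block it was -0.058, since that leaves ZT3 only with arrays of the set in which the gene is high.

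For the other 5 receptors the sign of the difference depended on the array set. Dop1R1 was lower at ZT15 by a difference of -0.34 within the set of 4 and higher by 0.43 within the set of 6, Dop2R by -0.47 and 0.50, 5-HT1A by -0.36 and 0.20, 5-HT1B by -0.20 and 0.58, and 5-HT7 by -0.22 and 0.34. All 6 receptors were thus higher at ZT15 in the set of 6, where each time is 1 array, and 5 of 6 were lower at ZT15 in the set of 4. The share of all probe sets with these signs was not counted. Receptor profiles also resembled each other (below), so these signs are not independent. A test of time by array set, chosen after the values were seen, rests on the spread of the 2 pairs of arrays in the set of 4, since the set of 6 has 1 array a time. It gave adjusted p of 0.57 for Dop2R, 0.64 for 5-HT1A and 5-HT7, 0.67 for 5-HT1B, 0.69 for 5-HT2A and 0.70 for Dop1R1 (limma). At an unadjusted p under 0.05 there were 3 receptors, Dop2R (0.0069), 5-HT1A (0.043) and 5-HT7 (0.047), against 7.67% of all probe sets (996). None passed the adjustment, nor did any of all probe sets (0%). The neuron marker mean moved the same way, from 9.77 and 9.98 at ZT3 to 9.62 and 9.65 at ZT15 in the set of 4. In the set of 6 it went from 10.34 to 10.46, while the mean of the 6 receptors went from 7.64 to 8.09. There the mean of 7 glia markers rose from 10.74 to 11.02 and that of 6 muscle markers fell from 10.74 to 8.07. The part of these cell types in the receptor values was not tested.

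The intervals around the other differences all included a ratio of 1. With the set as a block, the ratio of ZT15 to ZT3 had 95% limits of 0.617 and 1.45 for Dop1R1, 0.612 and 1.34 for Dop2R, and 0.682 and 1.15 for 5-HT1A. For 5-HT1B they were 0.704 and 1.54, and for 5-HT7 0.752 and 1.27. Adjusted p-values with the block were 0.78 for 5-HT1A, 0.89 for Dop2R, 0.95 for Dop1R1, 0.96 for 5-HT1B and 0.97 for 5-HT7 (limma).

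**Figure D2:**
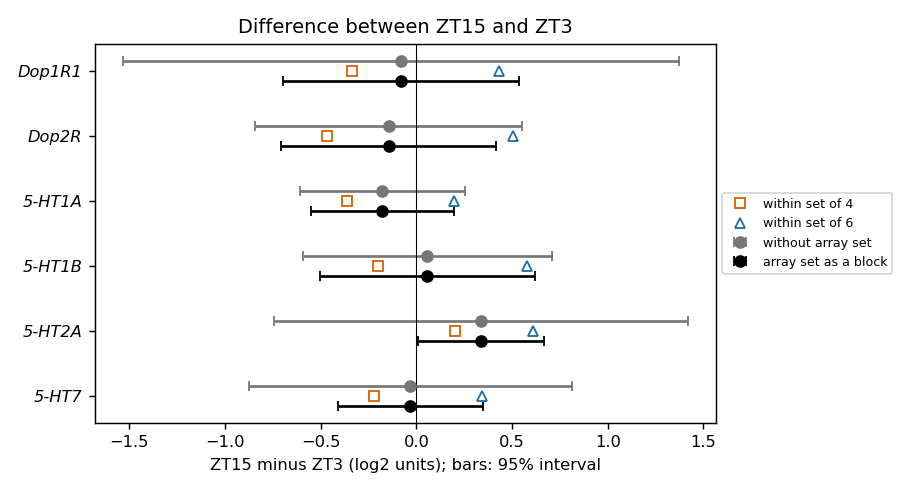
ZT15 minus ZT3 for each receptor in log2 units (horizontal axis); filled circles with bars are limma estimates with 95% intervals, without (grey) and with (black) the array set as a block, and open symbols are the differences within each set. Every interval but that of 5-HT2A with the block spans 0, and for 5 of the 6 receptors the 2 sets fall on opposite sides of 0.

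A 24-hour cosine fitted to all 10 arrays asks whether the receptors followed a daily cycle. None of the 6 passed an adjusted p of 0.05 without or with the set as a block (limma), against 0.0385% and 0.508% of all probe sets (5 and 66). At an unadjusted p under 0.05 the count of receptors was also 0 in both, against 1.61% and 7.91% of all probe sets. Fitted amplitudes, the distance from mean to peak, were 0.064 for Dop1R1, 0.13 for 5-HT1B, 0.15 for Dop2R, 0.18 for 5-HT2A, 0.23 for 5-HT1A and 0.24 for 5-HT7. Their median, 0.17, lay beside 0.13 over all probe sets. With the block, leaving out 1 array moved these amplitudes by more than 1.5 times in all but 5-HT2A: that of 5-HT7 was 0.032 without ZT23 and 0.43 without ZT19, and that of 5-HT1A 0.094 without ZT23 and 0.43 without ZT11. Without ZT19 it was 0.23 for Dop1R1, 0.29 for Dop2R and 0.32 for 5-HT1B. Without the block 5-HT2A reached 0.43 when ZT19 was left out, and Dop1R1 0.43 without ZT11. 5-HT2A was nearest to the threshold, with an amplitude of 0.18 ± 0.075 (SE with the block), a fitted peak at ZT17.2 and an adjusted p of 0.74 (limma).

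The highest level of 5 of the 6 receptors, all but 5-HT2A, was at ZT23, both in the set of 6 and over all 10 arrays. Over all tested probe sets, ZT23 was the highest of the set of 6 for 29.2% and the highest of all 10 arrays for 12%. ZT23 minus the mean of the other 5 arrays of its set was 0.90 for 5-HT1A, or 1.87-fold, where those 5 had a mean of 8.39 ± 0.20 (SD, n = 5). It was 0.84 for 5-HT1B (mean of the others 6.60 ± 0.27), 0.72 for 5-HT7 (6.80 ± 0.18) and 0.70 for Dop2R (8.20 ± 0.23). For Dop1R1 it was 0.48 (8.43 ± 0.29) and for 5-HT2A 0.23 (8.58 ± 0.25). The first 4 of these exceeded 3 times the SD of the other arrays, and 5-HT2A stayed below 1 SD. How many of all probe sets did so was not counted, so this does not set the receptors apart. The median was 0.71 over the receptors and 0.024 over all probe sets, of which the middle 90% lay between -0.84 and 0.65. ZT23 is a single array and was singled out after its values were seen, so no test is given.

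Other transcripts moved on the same array. Of the 13 neuron markers, 12 were also highest of the set of 6 at ZT23 and all 13 were above the mean of the other arrays, by 0.17 to 1.17 with a median of 0.44. The summed level of the neuron markers was 15.39 at ZT23 and at least 14.85 on the other arrays of the set. The 7 photoreceptor markers were all above the mean of the other arrays too, by a median of 0.45, as were 6 of 7 glia markers (0.23), all 6 fat body markers (0.079) and 5 of 7 hemocyte markers (0.099). The 15 testis and accessory gland markers were all lower at ZT23, by a median difference of -0.68, as were all 6 muscle markers, by -1.21. The muscle markers varied widely over the whole set of 6, and ZT23 was not the lowest. Their mean was 8.73 at ZT23, 8.07 at ZT15 and 11.94 at ZT19. Levels were also taken relative to each array's mean of the neuron markers, a scaling chosen after the values were seen. ZT23 was then highest of the set of 6 for 2 of the 6 receptors, 5-HT1A (0.38 above the mean of the others) and 5-HT1B (0.31). It was so for 4 of the 13 neuron markers, 0 of 9 related receptors described below and 2.54% of all probe sets. Over all 10 arrays ZT23 was highest for 0 receptors. On that scale Dop2R was at 0.17, 5-HT7 at 0.20, Dop1R1 at -0.047 and 5-HT2A at -0.30. Quantile normalization and median centring left ZT23 highest for 5 of 6.

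**Figure D3:**
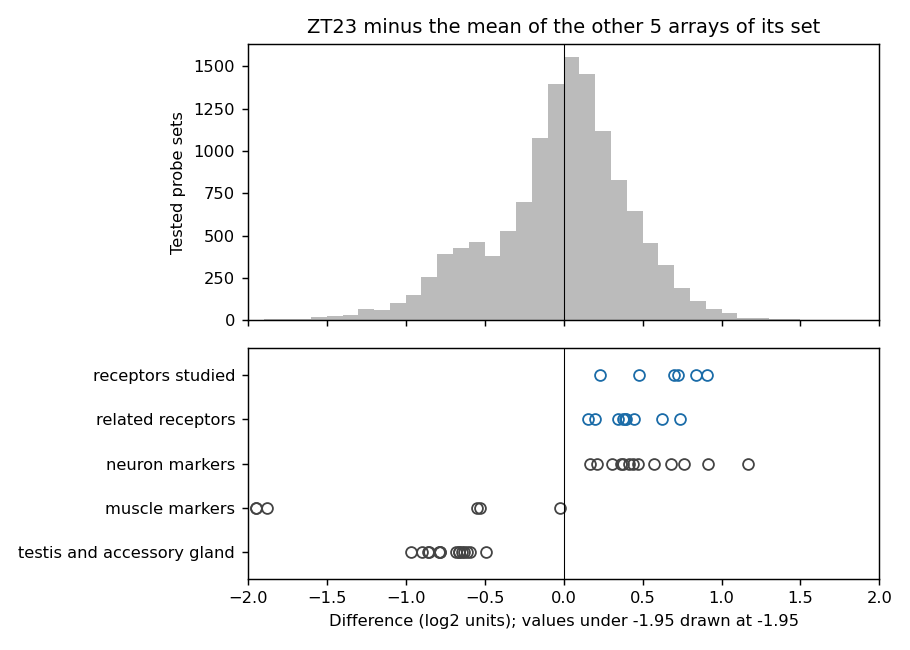
Upper panel, number of tested probe sets by their difference between ZT23 and the mean of the other 5 arrays of its set (log2 units, horizontal axis, bins of 0.1). Lower panel, the same difference for single genes, 1 circle each: the 6 receptors lie between 0.23 and 0.90, the 9 related receptors and 13 neuron markers also lie above 0, and the muscle, testis and accessory gland markers lie below 0, with the lowest muscle markers drawn at the left edge.

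Between the array sets the receptors split. Dop1R1 averaged 8.51 ± 0.32 (SD, n = 6) in the set of 6 and 7.25 ± 0.32 (SD, n = 4) in the set of 4, 2.40-fold lower. 5-HT7 averaged 6.92 ± 0.34 and 6.21 ± 0.14, 1.63-fold lower. 5-HT2A went the other way, from 8.62 ± 0.24 to 9.61 ± 0.14, 1.98-fold higher in the set of 4. For these 3 the sets did not overlap, a share of 50% where 55.3% of all probe sets did not overlap (22% lower and 33.3% higher in the set of 4), so the count is near the background. Dop2R (0.28 higher in the set of 4), 5-HT1B (0.038) and 5-HT1A (-0.092) overlapped between sets. The sets were found by clustering these same arrays, so these differences describe them and carry no test. Of the 13 neuron markers 11 were lower in the set of 4, with a median difference of -0.73, and their summed level was 14.67 to 14.96 there and 14.85 to 15.39 in the set of 6. Higher in the set of 4 were 5 of 7 glia markers (median 0.41), 5 of 7 hemocyte markers (0.43) and all 6 fat body markers (0.26). The part of these cell types in the receptor differences was not tested.

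The other receptors for these amines gave a like picture. All 9 on the list passed the filter: DopEcR, which binds dopamine and ecdysone, the tyramine receptors Oct-TyrR, TyrR and TyrRII, the octopamine receptors Octbeta1R, Octbeta2R, Octbeta3R and Octalpha2R, and 5-HT2B. None passed the threshold for ZT15 against ZT3 or for a rhythm in any of the 4 fits (limma). At an unadjusted p under 0.05 there were 0 without the block and 1 with it for ZT15 against ZT3, and 0 for the rhythm (limma). The largest differences with the block were -0.40 ± 0.14 (SE) for TyrR and 0.27 ± 0.33 for TyrRII, both with means under 5, close to the filter. The median of the 9 was -0.033. ZT23 was highest of the set of 6 for 7 of the 9, against 29.2% of all probe sets. It was above the mean of the others for all 9, with a median difference of 0.39. Among the 7, 5-HT2B had a mean of 4.17, close to the filter, and read 4.404 at ZT23 and 4.398 at ZT7. Octbeta1R, a beta-like octopamine receptor, was at 9.42 at ZT23 and 8.80 ± 0.18 (SD, n = 5) on the others, and Oct-TyrR at 7.19 against 6.45 ± 0.26. Of the 9, DopEcR alone had array sets that did not overlap (9.62 ± 0.27 and 9.08 ± 0.16), and it was lower in the set of 4. Over all probe sets 55.3% did not overlap, 22% being lower in the set of 4, so this does not set DopEcR apart.

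**Figure D4:**
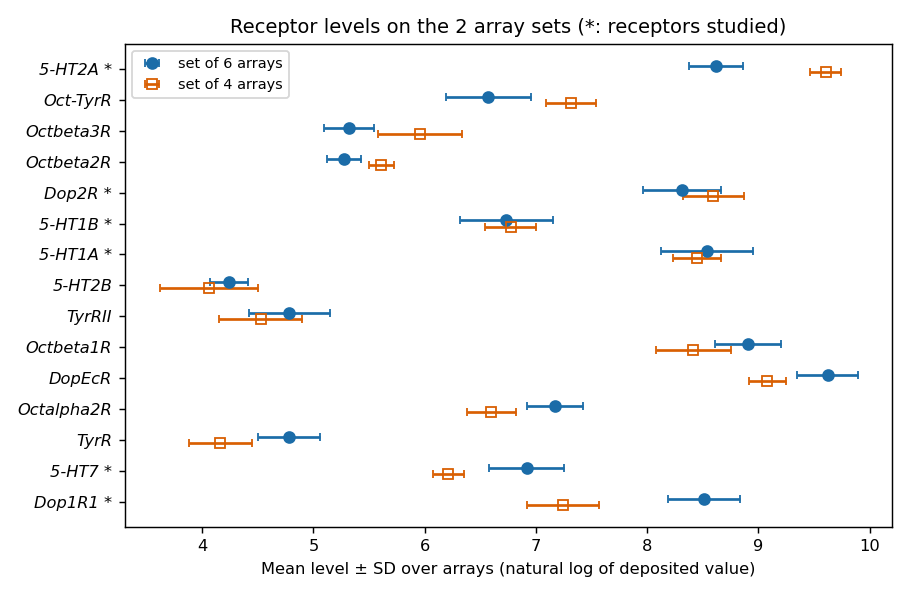
Mean level ± SD over arrays (natural log of the deposited value, horizontal axis) of the 6 receptors (asterisk) and 9 related receptors in the set of 6 arrays (filled circles) and the set of 4 (open squares), ordered by the difference between sets. 5-HT2A at the top is higher and Dop1R1 at the bottom lower in the set of 4; levels are comparable within a row only.

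Genes that act before and after the receptors were counted from lists of the pathway. Of 11 listed genes for synthesis, packaging and reuptake of monoamines 9 were tested, and 0 passed in any of the 4 fits. The largest differences with the block were those of Tdc1, a tyrosine decarboxylase (0.33 ± 0.14, adjusted p 0.55), and Pu, which makes the cofactor of the hydroxylases (0.28 ± 0.16, adjusted p 0.67, limma). No gene passed the threshold for ZT15 against ZT3 or for a rhythm among 8 tested of 11 G protein subunits. There Galphaf was at -0.66 ± 0.18 and Galphai at -0.20 ± 0.094. None did among 10 tested of 14 genes of the cyclic AMP cascade, where Epac, a cyclic AMP-gated exchange factor, was at 0.53 ± 0.11 and the phosphodiesterase Pde8 at -0.40 ± 0.12. None passed among 8 tested of 10 genes of receptor desensitization and calcium release. There the eye protein kinase C gene inaC was at -0.50 ± 0.099 and the phospholipase C gene sl at -0.15 ± 0.17. Adjusted p for these 6 genes ran from 0.23 for Epac and inaC to 0.83 for sl. The median differences of these 4 lists were -0.027, -0.011, -0.12 and -0.052.

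Of 6 tested among 10 listed genes of monoamine inactivation, 1 was rhythmic with the set as a block. That gene is t (tan), whose enzyme frees dopamine and histamine from their beta-alanine conjugates. It was at 13.26, 13.06 and 12.64 at ZT3, 11.68 at ZT7, 10.94 at ZT11, 11.94, 12.17 and 12.18 at ZT15, 12.28 at ZT19 and 13.15 at ZT23. Both sets were lower at ZT15 than at ZT3, by differences of -0.98 and -0.69, and the 2 times did not overlap; the difference of -0.89 had an adjusted p of 0.13 with the block (0.012 with a trended, robust variance prior, limma). Its amplitude was 0.95 ± 0.11 (SE) with a fitted peak at ZT23.1 (limma, adjusted p 0.021 with the block and 0.79 without). Its lowest array was ZT11. The call ended when any 1 array other than ZT15 replicate 1 or ZT19 was left out (adjusted p 0.067 to 0.096 with the block) and when an F test compared the 6 time means (0.18), while the amplitude without any of those arrays stayed between 0.84 and 0.96. The second gene named, AANATL3, an N-acetyltransferase gene, differed by 0.49 ± 0.32 between ZT15 and ZT3 (adjusted p 0.71 with the block, limma).

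The receptors' profiles were also compared with those of all other tested probe sets, after the mean of each array set was subtracted, by Pearson's r over the 10 arrays; the arrays also differ in their neuron marker level, and r is given as a description with no p. The genes most like Dop1R1 were Rbp6, an RNA-binding protein gene of the Musashi family (r 0.97), and CG14464 (0.94). Those most like Dop2R were Snap25 (0.98), which encodes a SNARE protein of synaptic vesicle release, and the neuroligin gene Nlg3 (0.97). For 5-HT1A they were cindr (0.98), an adaptor protein gene, and Fife (0.98), whose protein organizes the presynaptic active zone. For 5-HT1B they were the myosin gene Myo95E (0.98) and unc-5 (0.98), a netrin receptor gene. 5-HT2A was most like CG40006 and Hsc20 (0.97 each) and 5-HT7 most like P5CDh1 (0.98) and the cuticle protein gene Cpr73D (0.97). Such values were common, with 22 probe sets above 0.9 for Dop1R1 and 144 for 5-HT1A. Among the 15 receptor pairs r ranged from 0.36 (5-HT2A and Dop1R1) to 0.92 (5-HT1A and Dop2R), and 7 pairs were above 0.8. Without the ZT23 array 2 pairs stayed above 0.8, Dop2R with 5-HT1A (0.85) and with 5-HT7 (0.81).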

How the data were processed

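RNA of fly heads was measured on 10 Affymetrix arrays. Trizol served for the extraction, per the labels. For each probe set the authors deposited a single intensity an array. GCRMA is the tool named per the submitters' processing notes; its version and options are unstated. The largest deposited intensity, 8527865, is above what a 16-bit scanner can write (65536), while its natural log is 15.96, so natural logs were used and read as log2 values. If the deposited values are plain intensities, differences are larger by 1.44 times.

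Symbols came from the platform annotation. The 183 control probe sets were left out, and 12991 of 18769 others, with a mean of at least 4, were tested with limma 3.58.1 in R 4.3.3 (lmFit, eBayes, Benjamini-Hochberg over all, threshold 0.05). A gene with several probe sets was represented by the one with the highest mean. Array sets are the 2 clusters of average linkage on 1 minus Pearson's r. Named genes are the members, the 2 most alike genes of each, list genes past the threshold and the 2 list genes with the largest difference under the block. Members, lists, scale and block were chosen with earlier results of these data known. Fits were tested on simulated data. Simulated differences of 1 unit between ZT15 and ZT3 were recovered in 2% of cases without the block and 34% with it, so real differences of that size can be missed. Whether replicate numbers pair the arrays could not be told. Deviations of same-numbered arrays correlated at -0.89, 0.80 and -0.90 for replicates 1, 2 and 3. These signs follow the array sets, since only the arrays of replicate 2 lie in the same set at both times. The number of arrays limits the precision. No sequence is shown.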

Additional observations from a re-analysis of the deposited data

How the results depend on the processing

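No receptor passed in any of the 4 fits under any alternative run (filters, scale, normalizations, pseudocount, variance prior, left-out arrays, other fits), with the lowest adjusted p at 0.35. Without 1 replicate, ZT15 minus ZT3 ranged from -0.64 to 0.32 for Dop1R1, -0.43 to 0.018 for Dop2R, -0.29 to -0.10 for 5-HT1A, -0.16 to 0.25 for 5-HT1B, -0.058 to 0.60 for 5-HT2A and -0.36 to 0.16 for 5-HT7. With the set block the ranges were -0.34 to 0.13 for Dop1R1, -0.47 to -0.028 for Dop2R, -0.36 to -0.10 for 5-HT1A, -0.20 to 0.23 for 5-HT1B, 0.20 to 0.43 for 5-HT2A and -0.22 to 0.058 for 5-HT7. Quantile normalization turned 5-HT7 to 0.088 in both fits. The second Dop2R probe set gave 0.19 in both. In the set of 6 alone the differences of Dop1R1 (0.43), Dop2R (0.50), 5-HT1A (0.20) and 5-HT7 (0.34), and in the set of 4 alone that of 5-HT1B (-0.20), opposed the pooled ones. The causes were not tested. The 5 of 6 receptors highest of the set of 6 at ZT23 became 2 relative to the neuron markers. The share of all probe sets went from 29.2% to 2.54% under the same scaling.

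With the replicate number as a block 0 receptors and 0 probe sets passed for ZT15 against ZT3 (106 at an unadjusted p under 0.05, limma); 0 to 0 passed without 1 replicate, against 4 in all. The 20 with the set block were 102 under a trended, robust variance prior, 13 under quantile normalization and 0 to 5 without 1 replicate. For the rhythm the 5 were 9 under the trended, robust prior, 3 under quantile normalization, 0 in the larger set only and 2 to 4 without 1 array. With the block the 66 became 6 over time means and 13 to 72 without 1 array.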

Other observations

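Of 9 genes for synthesis, packaging and reuptake, 7 were higher in the set of 4, with a median difference of 0.56 against 0.18 over all probe sets and -0.73 over 13 neuron markers. The medians of glia markers (0.41), hemocyte markers (0.43), fat body markers (0.26) and 8 G protein subunit genes (0.31) were also higher in the set of 4. The reuptake transporter genes led: DAT, the dopamine transporter, averaged 6.97 ± 0.24 (SD, n = 6) in the set of 6 and 8.35 ± 0.28 (SD, n = 4) in the set of 4, and SerT, the serotonin transporter, 7.56 ± 0.29 and 8.74 ± 0.24. ple, the tyrosine hydroxylase gene of dopamine synthesis, averaged 6.26 ± 0.43 and 7.24 ± 0.15, and Tdc2, the neuronal tyrosine decarboxylase gene, 5.73 ± 0.26 and 6.46 ± 0.21. Vmat, the vesicular transporter that loads all these amines, was lower in the set of 4, at 9.28 ± 0.26 against 9.85 ± 0.21, and so was Tbh, which completes octopamine synthesis, at 7.53 ± 0.22 against 7.87 ± 0.31. The sets were found from these same values and the lists were chosen with earlier results known, so these are descriptions without a test.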
